A study of Mus musculus with 9 samples.

Results

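The genes described here are 10 melanocyte and pigment genes of the mouse, namely Tyr, Tyrp1, Dct, Pmel, Mlana, Mitf, Sox10, Oca2, Mc1r and Ednrb, and every probe set annotated to one of them was taken. The array annotation gave 13 such probe sets for 9 of the 10 genes, of 12422 probe sets and 8252 named genes in all. Mlana had no probe set in that annotation, and its level was not analysed here. Whole skin was taken from mice that had received no UVB, 5 lacking Cd1d (Cd1d -/-) and 4 wild-type (Cd1d +/+), all on the C57BL/6 background and described as matched for age and sex. CD1d is a molecule that shows lipid antigens to natural killer T cells. Each mouse was hybridised to its own Affymetrix MG-U74 GeneChip, so errors given here cover differences between mice. The labels give no age, no body site and no stage of the hair cycle.

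Melanocytes are the pigment cells of the skin. They make melanin from the amino acid tyrosine inside organelles called melanosomes and hand these over to keratinocytes. In the haired trunk skin of the mouse most of them sit in the hair follicle, and they make pigment while the follicle grows its shaft, a phase named anagen, and stop when it regresses and rests. Each gene was set beside Krt25, an inner root sheath keratin made in growing follicles, on the same array. The transcription factor MITF drives many pigment genes through a short DNA element around the letters CATGTG, of which the longer form near melanocyte genes is known as the M-box.

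The promoters of the pigment enzymes Tyr, Tyrp1 and Dct are shown because these enzymes are the classical MITF targets. They come from RefSeq (GRCm38.p6), run 5′ to 3′ on the strand of the gene, and hold 250 bases before the start site and 50 after it. Capitals mark TCATGTG on either strand. Tyr is shown at chr7:87493463-87493762 (minus strand), Tyrp1 at chr4:80833963-80834262 (plus strand) and Dct at chr14:118052197-118052496 (minus strand).
Tyr: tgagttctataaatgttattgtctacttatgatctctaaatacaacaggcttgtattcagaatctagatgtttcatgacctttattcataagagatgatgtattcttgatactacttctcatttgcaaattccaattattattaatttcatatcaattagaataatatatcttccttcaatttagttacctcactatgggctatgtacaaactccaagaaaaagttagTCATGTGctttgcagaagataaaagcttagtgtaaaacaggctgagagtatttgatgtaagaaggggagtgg
Tyrp1: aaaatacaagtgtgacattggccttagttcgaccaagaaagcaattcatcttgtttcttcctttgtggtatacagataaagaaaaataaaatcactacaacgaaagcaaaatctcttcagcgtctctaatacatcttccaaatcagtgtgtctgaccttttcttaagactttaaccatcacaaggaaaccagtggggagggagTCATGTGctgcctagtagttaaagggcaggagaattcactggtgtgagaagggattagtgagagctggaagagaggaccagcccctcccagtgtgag
Dct: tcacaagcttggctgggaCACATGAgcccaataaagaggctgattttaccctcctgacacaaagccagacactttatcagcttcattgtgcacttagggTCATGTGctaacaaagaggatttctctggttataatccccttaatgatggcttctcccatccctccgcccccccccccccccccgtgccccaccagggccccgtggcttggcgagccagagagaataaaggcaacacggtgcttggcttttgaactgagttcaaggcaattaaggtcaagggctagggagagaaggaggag

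The element lay close to the annotated start in Tyr and Tyrp1 and further away in Dct. It began 22 bases before the start site in Tyr, 47 bases before it in Tyrp1 and 151 bases before it in Dct, which also holds another copy on the opposite strand. The longest run around it common to the 3 promoters is GTCATGTGCT, of 10 letters. That run was found from these promoters and occurs, on either strand, in 61 of 32851 mouse promoters of this length (0.186%). The shorter TCATGTG, which overlaps it, occurs in 3.77% of all promoters, and CATGTG, which overlaps both, in 14.2%. Of the 9 member promoters in the table, which belong to 7 genes, 4 hold TCATGTG. The further one is Mc1r, where it begins 52 bases before the start site within CATCATGTGGC. CATGTG alone was in 5, adding Oca2. The 3 promoters of Mitf and that of Ednrb hold none of these letters. A match describes these letters only.

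Signals are in arbitrary MAS5 units, a scale on which each probe set has its own response, so a level is compared between arrays and not between probe sets. The arrays had been brought to a common scale, with a trimmed mean signal of 200.11 to 200.133. Signals under the 40th percentile of an array, 43.4 to 53.3, are treated as dim. A probe set was kept for testing where at least 4 of the 9 arrays reached that level. Of the 13 member probe sets, 5 were kept, 1 each for Dct, Pmel, Mc1r, Mitf and Sox10. The other 8, among them all 4 of Tyrp1 and those of Tyr, Oca2 and Ednrb, were dim in most arrays and were fitted without the filter. The deposited values carry 7 decimals in knockout 1 and 2 and wild type 2, 3 and 4, and 9 decimals in knockout 3, 4 and 5 and wild type 1. What this split marks is not given in the sources used here. Cd1d1, the targeted gene, gave 47.6 to 79.6 in the knockout arrays and 91 to 130 in the wild-type arrays, without overlap and in the order the labels give. Whether its probe set lies in the deleted part is not given in the sources used here.

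Krt25 divided the arrays into 3 with high and 6 with low signal. It read 2647.9 in knockout 1, 4915.8 in knockout 2 and 2892.5 in knockout 5. The other knockout arrays read 52.1 (knockout 3) and 4.6 (knockout 4), and wild type 1 to 4 read 13.4, 3.8, 148.3 and 3. All 3 high arrays are knockout arrays. Of the 6 low arrays, 4 lie below the 40th percentile, where values have no order, and wild type 3 and knockout 3 lie above it. Because the arrays fall into separate sets, no correlation with Krt25 over all 9 is given.

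Dct, the dopachrome tautomerase that acts late in the synthesis of eumelanin, was clearly measured in all 9 arrays. Knockout arrays 1 to 5 gave signals of 590.1, 856.2, 208.8, 148.6 and 365.6, and wild-type arrays 1 to 4 gave 221.5, 192.7, 186.6 and 183. The 3 arrays with high Krt25 were the 3 highest for Dct, and knockout 4 was the lowest of all. Against the wild-type mean of 196 ± 17.5 (SD, n = 4), knockout 2 stood at 4.37-fold, knockout 1 at 3.01-fold and knockout 5 at 1.87-fold.

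Pmel encodes the protein that builds the fibrils of the melanosome on which melanin is laid down. Its signals, in the same order of arrays, were 374.3, 433.3, 100, 95.4 and 133.6 for the knockouts and 109.8, 77.2, 78.9 and 76.5 for the wild types. Knockout 1 and 2 stood far above the rest, at 4.37-fold and 5.06-fold of the wild-type mean of 85.6 ± 16.2 (SD, n = 4). Knockout 5, at 1.56-fold, came next. It lay above every array with low Krt25, of which wild type 1 was the highest, but far below knockout 1 and 2.

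Tyrp1, a melanosomal enzyme related to tyrosinase, is read by 4 probe sets, all dim in most arrays. Its brightest probe set gave 201.8, 273.7, 32.7, 36.5 and 69 for knockouts 1 to 5 and 33.9, 29.8, 6.8 and 23.5 for wild types 1 to 4. Only knockout 1, 2 and 5 exceeded the 40th percentile of their array. Relative to the wild-type mean of 23.5 ± 11.9 (SD, n = 4), knockout 1 was at 8.59-fold and knockout 2 at 11.6-fold, folds that are uncertain because the wild-type arrays are dim. The next pair of probe sets reached the 40th percentile in 1 array each, knockout 2, with 73.3 and 57.7 there and 9.4 to 18.3 and 6.2 to 9.5 in the wild-type arrays. The last probe set, at 0.5 to 9.2 throughout, was too dim to describe a level. These probe sets read one gene and are not independent.

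Tyr encodes tyrosinase, the rate-limiting enzyme of melanin synthesis. Its probe set reached the 40th percentile in 0 of 9 arrays, with 49.7, 35.1, 21.3, 10.1 and 17 for knockouts 1 to 5 and 14.6, 10.3, 20.5 and 9.8 for wild types 1 to 4. It was not above the dim range in any array, and no order is read from it. Oca2, a melanosomal membrane protein that acts on the pH inside the organelle, exceeded the 40th percentile only in knockout 1 and 2. Its signals, in the same order of arrays, were 76, 136.5, 37.7, 24.1 and 32 for the knockouts and 38.1, 19.9, 32.8 and 9.3 for the wild types.

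Of the receptors, Mc1r, which binds melanocortins and turns melanocytes toward eumelanin, gave 94.9, 87.9, 39.4, 49.8 and 53.2 for knockouts 1 to 5. The wild-type arrays were tightly grouped at 48.6, 54.8, 51.4 and 55, near the 40th percentile of these arrays (51.2, 43.4, 50.6 and 51.2). Wild type 1 and knockout 3 were dim, so folds over the wild-type mean are uncertain. Knockout 1 and 2 again stood alone, at 1.81-fold and 1.68-fold of the wild-type mean of 52.5 ± 3.05 (SD, n = 4), while knockout 5 was at its level (1.01-fold). Ednrb, the endothelin receptor needed for the melanocyte lineage and also made by endothelial cells, reached the 40th percentile in 1 array. Its signals, in the same order of arrays, were 38.7, 52.8, 22.9, 33.4 and 26.9 for the knockouts and 33.9, 27.5, 18.3 and 17.8 for the wild types, so that most values overlapped.

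The transcription factors of the lineage did not have this order of arrays. Mitf gave 49.6, 68.9, 53.8, 47.6 and 81.5 for knockouts 1 to 5 and 38.5, 28.7, 52.9 and 45.4 for wild types 1 to 4, with knockout 5 highest and knockout 1 below wild type 3. Mitf has several promoters used in different cell types, and which of its transcripts the probe set reads is not given in the sources used here. Sox10, the neural crest factor that acts above Mitf and is also made by Schwann cells, gave 226.2, 267.7, 216.7, 184.1 and 189.7 for knockouts 1 to 5 and 235.1, 199.8, 254.1 and 295.8 for wild types 1 to 4. Its highest array was wild type 4. The other Sox10 probe set was dim, at 9.7 to 56.3, and reached the 40th percentile in 1 array.

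**Figure D1:**
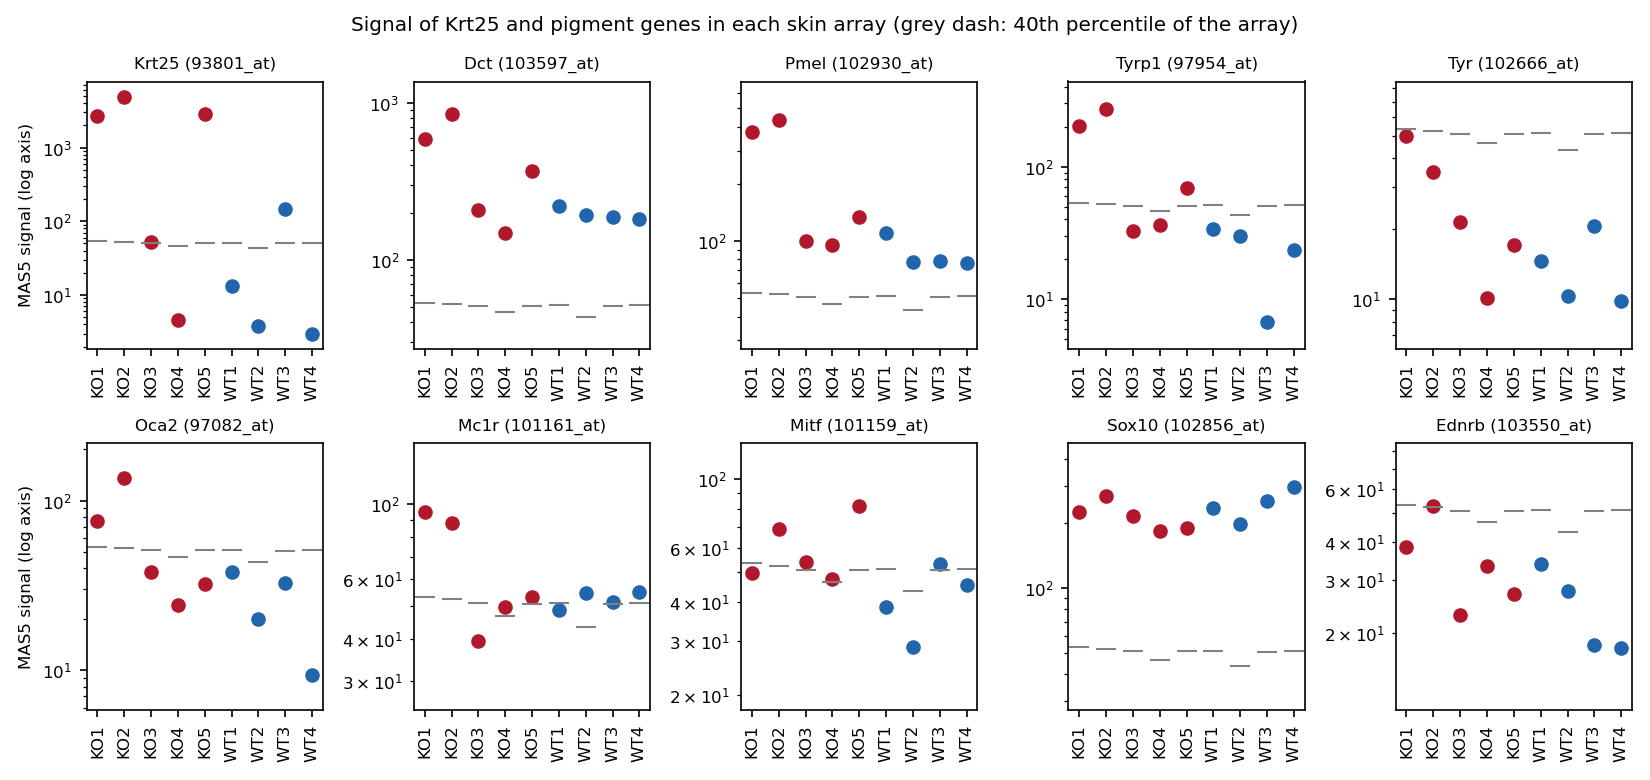
MAS5 signal (log axis, arbitrary units) of Krt25 and of 9 member probe sets, 1 for each member gene with a probe set, in the 5 knockout (KO, red) and 4 wild-type (WT, blue) skin arrays, each point 1 mouse. Grey dashes mark the 40th percentile of each array. Dct, Pmel, Tyrp1, Oca2 and Mc1r are highest in knockout 1 and 2, while Sox10 is highest in wild type 4. Tyr and Ednrb also have their highest values in knockout 1 and 2 but are left out of this order, since they are dim in all or most arrays.

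Knockout 1 and 2 were the highest of the 9 arrays, in either order, for 3 of the 5 kept member probe sets, those of Dct, Pmel and Mc1r, and not for Mitf or Sox10. Among all 7658 kept probe sets 5.21% had the same arrays on top, and among all 12422 on the array 4.96%. The brightest Tyrp1 probe set and that of Oca2, which were not kept, were also highest there and above the 40th percentile in both arrays. This order was chosen for description after the values were seen. Knockout 1 and 2 are also the only knockout arrays with 7 decimals, whereas the 7-decimal wild-type arrays, wild type 2, 3 and 4, were not high for these genes. In bulk skin, more melanocytes and more RNA of these genes per melanocyte cannot be told apart.

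Knockout 5 had more Krt25 signal than knockout 1, at 2892.5 against 2647.9, and less signal of Dct, Pmel and Mc1r. It held 0.62 of the knockout 1 signal for Dct, 0.36 for Pmel, 0.56 for Mc1r and 0.34 for the brightest Tyrp1 probe set. Mitf, dim in knockout 1, was at 1.64-fold. Over all kept probe sets 45.0% read higher in knockout 5 than in knockout 1. Of the 5 kept members 1 did, and of 16 measured genes in a wider list of pigment genes 8 did, with a median log2 ratio of -0.014. Of 19 measured genes in a list of hair follicle genes, 12 read higher in knockout 5. They include Krt34, a keratin of the hair shaft, at 1425.8 against 192.3 and Krt31, another, at 1174.3 against 247.6. The follicle genes that read lower in knockout 5 include Shh, a signal of the growing hair matrix, at 60.7 against 147.3, and Lef1, a nuclear partner of Wnt signalling, at 363.5 against 496.8. Each side of this comparison is 1 mouse, so it has no replicate check, and the arrays also differ in their number of decimals.

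**Figure D2:**
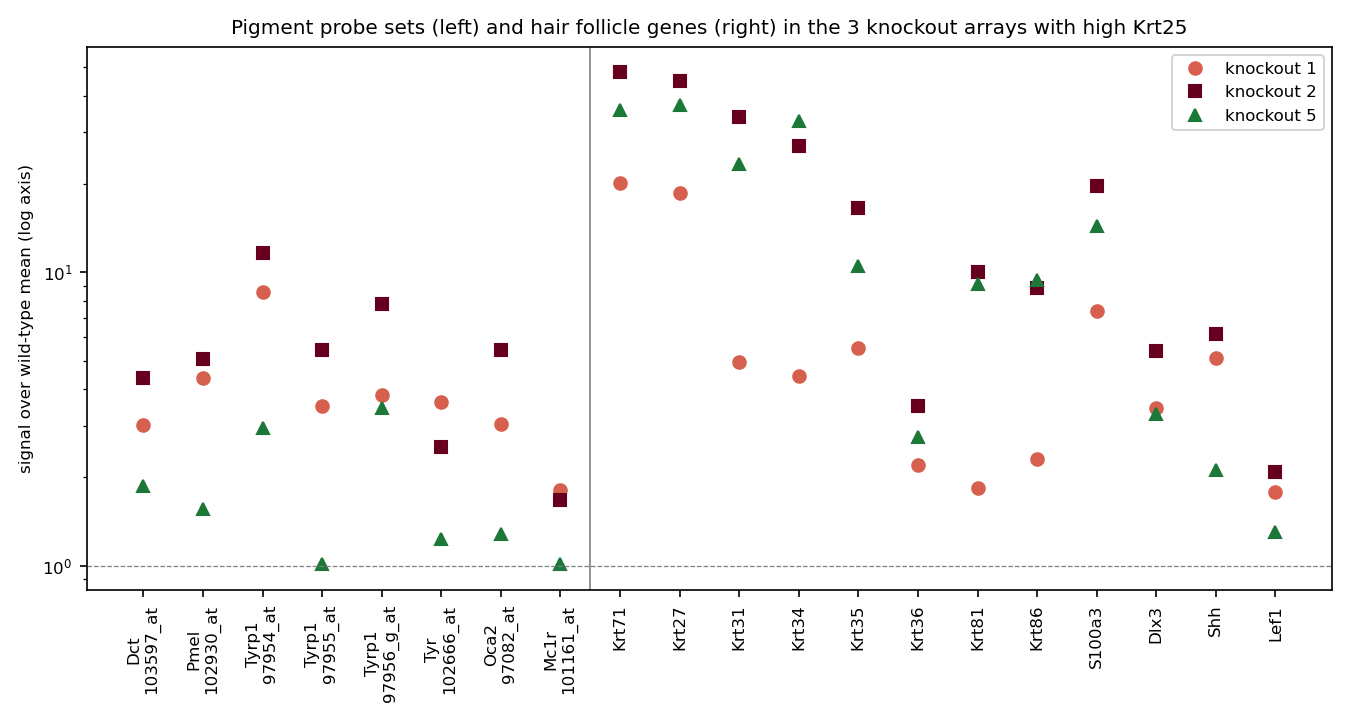
Signal over the wild-type mean (log axis) in knockout 1, 2 and 5, the arrays with high Krt25. Shown are 8 of the 13 member probe sets (left of the line) and 12 of the 19 measured hair follicle genes (right). Tyr is shown though dim in every array. Mitf, not shown, was at 1.97-fold in knockout 5 and 1.20-fold in knockout 1. Follicle genes not shown include Gata3 and Krtap8-1, at 1.04-fold and 44.2-fold in knockout 5. Each symbol is 1 array and the dashed line is the wild-type mean. In knockout 5 (triangles) Pmel is at 1.56-fold against 4.37-fold in knockout 1, whereas Krt34 is at 32.8-fold against 4.43-fold, folds that are uncertain because 3 of its 4 wild-type signals are dim.

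Whether the pigment genes differ between Cd1d -/- and wild-type skin was tested with limma over all 7658 kept probe sets. Of the 5 kept member probe sets 0 passed an adjusted p of 0.05, and 1 (Pmel) had an unadjusted p under 0.05. The background was 4 of 7658 probe sets past the adjusted threshold (0.0522%) and 9.4% at the unadjusted one. Pmel had a mean of 227 ± 163 (SD, n = 5) in the knockouts and 85.6 ± 16.2 (SD, n = 4) in the wild types, which is a log2 difference of 1.12 (SE 0.44, limma adjusted p = 0.469). Dct had 434 ± 291 against 196 ± 17.5, a log2 difference of 0.87 (SE 0.42, limma adjusted p = 0.562). The knockout SD holds the distance of knockout 1 and 2 from the other mice. For every member probe set the knockout and wild-type values overlapped, against 3.21% of kept probe sets without overlap.

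The remaining kept members were closer to zero. Mitf, at 60.3 ± 14.5 (SD, n = 5) against 41.4 ± 10.3 (SD, n = 4), gave 0.55 (95% interval -0.024 to 1.12, limma adjusted p = 0.552). Mc1r gave 0.23 (-0.37 to 0.83, 0.826) and Sox10 -0.18 (-0.52 to 0.16, 0.764). These intervals leave room for differences in either direction. In the fit without a filter, over 12422 probe sets, the brightest Tyrp1 probe set gave 2.09 (SE 0.69, limma adjusted p = 0.490), Oca2 1.18 (0.55, 0.593) and Tyr 0.80 (0.47, 0.685).

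The genotype difference depended on which mice were compared. Without knockout 1 and 2, an omission chosen after they were seen to be the highest arrays, so that a smaller value was set by the choice, the log2 difference was 0.36 for Pmel and 0.20 for Dct, and that of Mc1r turned to -0.15. Within the 7-decimal arrays, where knockout 1 and 2 are set against 3 wild-type arrays, Pmel had 2.38 (SE 0.18, limma adjusted p = 0.0170) and Dct 1.92 (SE 0.20, limma adjusted p = 0.0300). Both passed, in a comparison where 10 of 7658 probe sets did (0.131%). The knockouts left there are the highest arrays for both genes, so a larger value was set by which mice remained. They have high Krt25 and the wild types low, so genotype and Krt25 cannot be told apart in it. Over the alternatives run, the limma adjusted p ranged from 0.0170 to 0.998 for Pmel and from 0.0300 to 0.999 for Dct. Within the 9-decimal arrays, which hold 3 knockouts and 1 wild type, the values were -0.018 for Pmel and 0.021 for Dct. They rest on wild type 1 alone, which had the highest Pmel and Dct signals of the wild types, as do the highest of those adjusted p. With log2 Krt25 as a covariate the difference was 0.32 for Pmel and -0.023 for Dct, and with the median of the hair follicle list as the covariate it was 0.66 for Pmel and 0.27 for Dct.

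**Figure D3:**
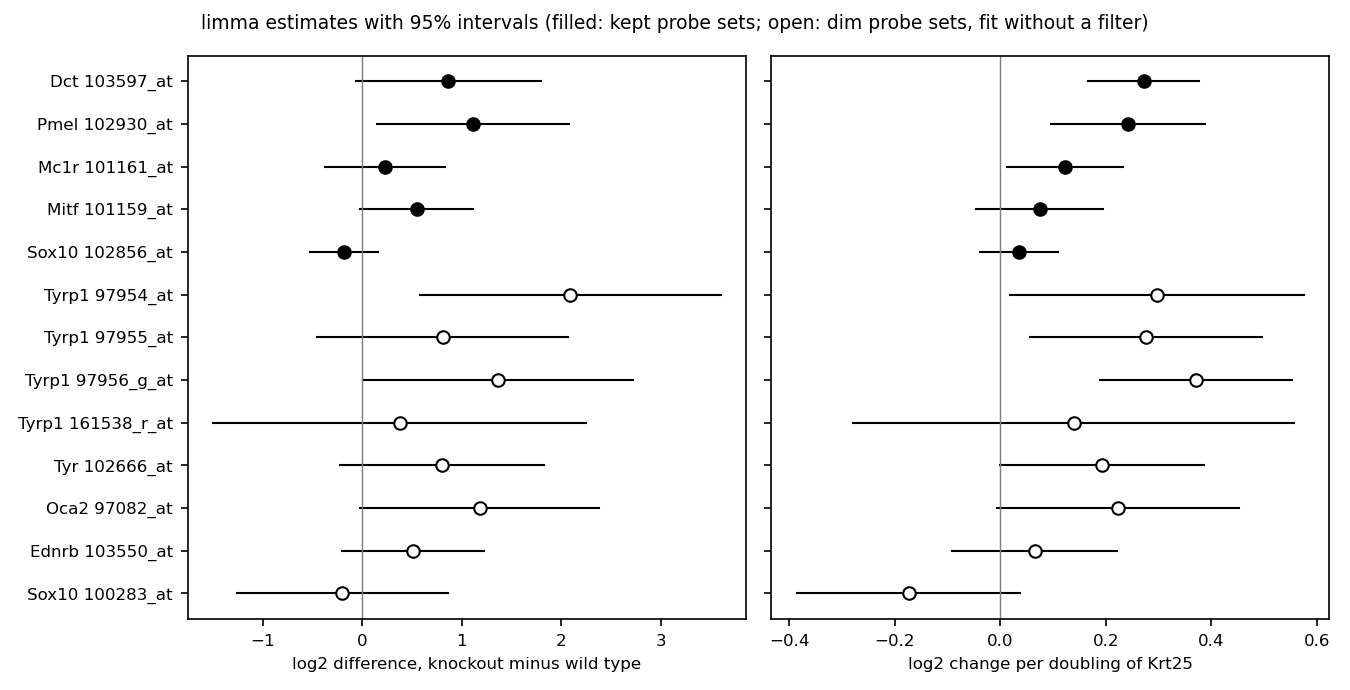
limma estimates (points) with 95% intervals (lines) for the 13 member probe sets. The left panel gives the log2 difference knockout minus wild type and the right panel the log2 change in signal per doubling of Krt25 with genotype in the model. Filled points are the 5 kept probe sets and open points the 8 dim ones, fitted without a filter; Dct has a slope of 0.27 and the brighter Sox10 probe set one of 0.035.

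The relation to Krt25 was estimated as a slope, the log2 change of a gene per doubling of Krt25, with genotype as a term. Krt25 values below the 40th percentile of the array were set to that level. Dct alone of the 5 kept members passed, with a slope of 0.27 (SE 0.048, 95% interval 0.17 to 0.38, limma adjusted p = 0.0475), just inside the threshold. Pmel had a similar slope of 0.24 (SE 0.066, limma adjusted p = 0.264) and Mc1r one of 0.12 (SE 0.050, 0.436). Mitf, at 0.075 (SE 0.054, 0.663), and Sox10, at 0.035 (SE 0.033, 0.751), had smaller estimates, and the differences between the slopes were not tested. In the background 31 of 7658 probe sets passed (0.405%), 30 of them rising with Krt25 (0.392%). Krt25 itself is among the 7658, and a rise with its own signal is set in advance. Genotype is a term and all 3 high arrays are knockouts. The slope therefore rests mostly on knockout 1, 2 and 5 against knockout 3 and 4. The wild-type arrays add little, since wild type 1, 2 and 4 are at the Krt25 floor.

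The Dct call did not hold when single mice were left out. It was lost without knockout 1 (limma adjusted p = 0.119), knockout 2 (0.290), knockout 4 (0.397), wild type 1 (0.0770), wild type 2 (0.0599) or wild type 4 (0.0726), with slopes of 0.22 to 0.31 over all 9 omissions. Over its 28 alternatives Dct passed in 8, with adjusted p from 0.00538 to 0.999949. Without knockout 5 Pmel passed as well, with a slope of 0.31 (SE 0.045, limma adjusted p = 0.0226), where 17 of 7658 probe sets did (0.222%). Among the 5 knockout arrays alone, where genotype plays no part, the slope was 0.29 for Dct (SE 0.050, limma adjusted p = 0.153) and 0.26 for Pmel (SE 0.073, 0.336). Within the 7-decimal arrays the slopes were 0.098 for Dct and 0.060 for Pmel, neither past the threshold. There both knockouts have high Krt25 and all wild types low, so the genotype term takes up that distance. That fit therefore cannot show the relation. Within the 9-decimal arrays the slopes were 0.18 for Dct and 0.077 for Pmel, resting on knockout 5 against knockout 3 and 4. With the hair follicle list in place of Krt25, the slopes were 0.43 for Dct (SE 0.11, limma adjusted p = 0.228) and 0.33 for Pmel (SE 0.15, 0.440). The size of the slopes also depends on the floor. With Krt25 not floored they were smaller, 0.17 for Dct (SE 0.039, limma adjusted p = 0.124) and 0.15 for Pmel (SE 0.051, 0.223).

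**Figure D4:**
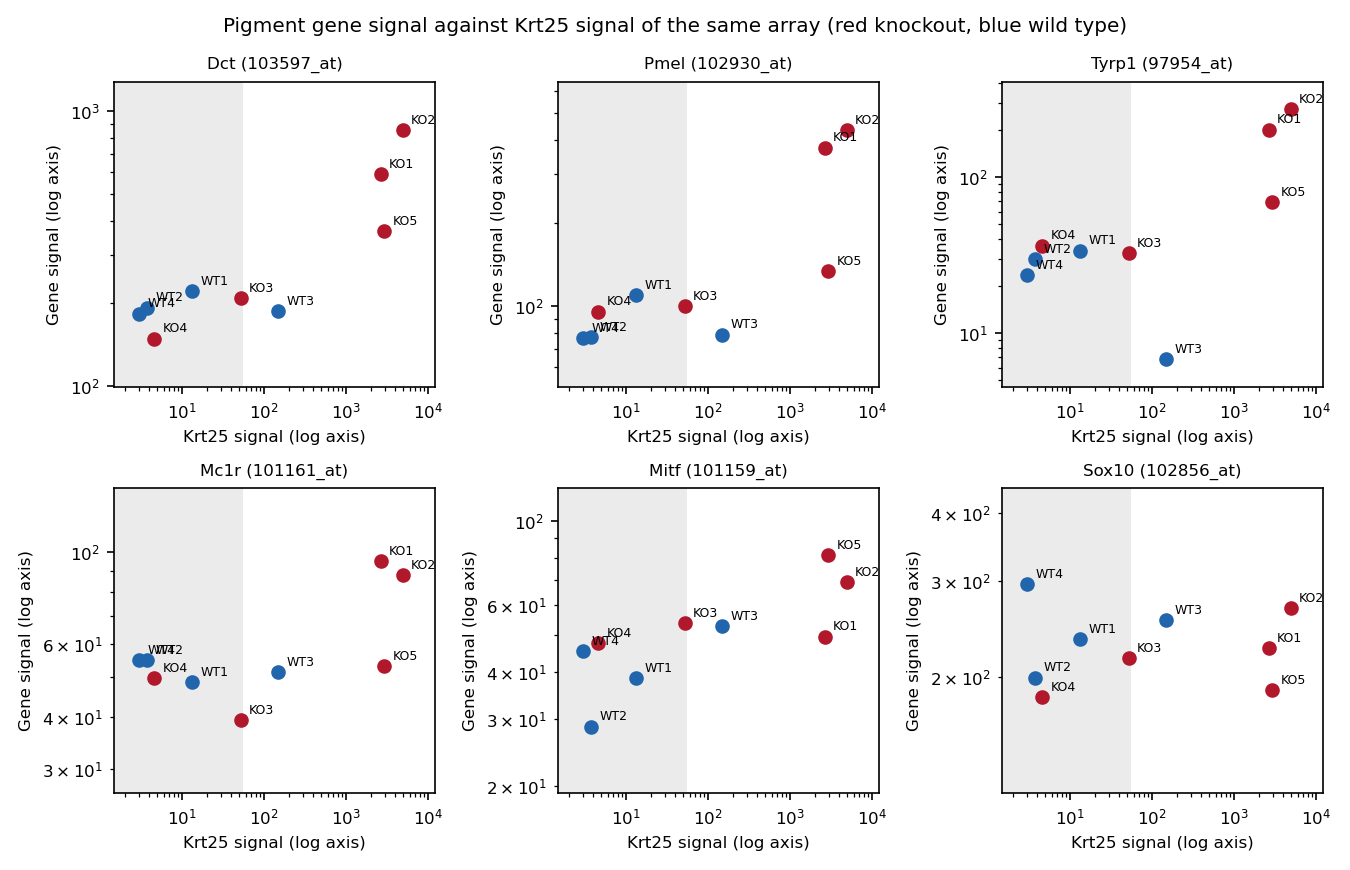
Signal of 6 member probe sets against the Krt25 signal of the same array, both on log axes, with red for the 5 knockout and blue for the 4 wild-type arrays, each point 1 mouse. The shaded area covers Krt25 signals up to 53.3, the highest 40th percentile of any array. Knockout 1, 2 and 5 lie on the right of each panel, and knockout 5 lies below knockout 1 and 2 for Dct, Pmel, Tyrp1 and Mc1r.

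Among the dim probe sets, the Tyrp1 probe set that read 57.7 in knockout 2 had the steepest slope, 0.37 (SE 0.082, limma adjusted p = 0.173 in the fit without a filter). The slopes of the other probe sets of Tyrp1 were 0.30, 0.28 and 0.14, that of Oca2 was 0.22 (SE 0.10) and that of Tyr 0.19 (SE 0.088). Ednrb had 0.065 (SE 0.071). The dim Sox10 probe set had -0.17 (SE 0.096), opposite in sign to the bright one. None of the 13 passed in that fit, in which Dct had an adjusted p of 0.0575.

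A wider list of 46 genes of melanosome traffic, melanocyte growth factors and pigment regulation had 27 genes on the array and 16 measured above the filter. Of these, 0 passed limma's threshold for genotype (1 at an unadjusted p under 0.05, Lyst, against 9.4% of all kept probe sets) and 0 for the slope on Krt25 (3 unadjusted, against 10.8%). The median log2 difference was 0.066, against 0.0071 over all kept probe sets, and the median slope 0.037, against -0.0032. The smallest p for the slope was that of Trpm1, a channel of melanocytes whose gene is under MITF control, at 180.7, 259.5, 87.6, 26.3 and 84.9 for knockouts 1 to 5 and 59.7, 35.3, 56.6 and 94.9 for wild types 1 to 4. Its slope was 0.28 (SE 0.090, limma adjusted p = 0.348), and without knockout 3 it passed, at 0.41 (SE 0.095, limma adjusted p = 0.0425), in a fit where 344 of 7658 probe sets did (4.49%). Both slopes are uncertain, since its signals in knockout 4 and wild type 2 are dim. Knockout 1 and 2 were its highest arrays, as they were for Kitl, the ligand of the receptor KIT, and Edn1, an endothelin. These are 3 of the 16 genes (18.75%), against 5.21% of all kept probe sets. The margin was small for Kitl, at 149.2 and 163.6 against 136.3 in knockout 3. It was also small for Edn1, at 130.2 and 121.8 against 113.7 in wild type 1.

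Of the other genes of that list, Kit, a growth factor receptor of melanocytes and mast cells, had a slope of 0.13 (SE 0.043, limma adjusted p = 0.353), with 107.9 in knockout 5, its highest array. Hps1, a subunit of a complex for melanosome formation, had 0.075 (SE 0.025, limma adjusted p = 0.374) and Edn1 0.13 (SE 0.060, 0.476). For genotype, Lyst, a regulator of lysosome-related organelles, had a log2 difference of 1.21 (SE 0.53, limma adjusted p = 0.517) at a mean of 64.1 ± 16.4 (SD, n = 5) against 35.6 ± 27.3 (SD, n = 4), and Adam10, a membrane protease, 0.31 (SE 0.15, limma adjusted p = 0.552). The Lyst difference is uncertain, since its signals in wild type 2 and 3 (12.7 and 11.7) and knockout 3 (35) are dim. The genotype values of Kit and Trpm1 were 0.38 (SE 0.26, limma adjusted p = 0.689) and 0.76 (SE 0.56, 0.713).

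The genes whose signal went most closely with Dct over the 9 arrays, among 6914 kept probe sets with 1 gene, were Ifitm10 (Pearson r = 0.98), Cbx5 (0.96) and Cux1 (0.96). For Pmel they were Hmgb3 (0.95), a chromatin protein, Pkp2 (0.95), a junction protein, and Stmn1 (0.95), a microtubule regulator of dividing cells. Stmn1 read 1397.9 and 1528.1 in knockout 1 and 2, 755.5 in knockout 5 and 518.7 to 804.6 in the other arrays. Knockout 1 and 2 were highest, as for Pmel, which the choice by correlation favours. Knockout 5 lay within the range of the other arrays, whereas for Pmel it was above them. These coefficients describe 9 arrays that fall into unequal sets and carry no test.

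Markers of other cells were set beside these values, since SOX10, EDNRB, MITF and KIT are not confined to melanocytes. The 5 measured Schwann cell markers of 12, among them Egr2, Pmp22, Erbb3 and Mbp, summed to 1872 to 2548.5 in knockout and 2176.8 to 2542.7 in wild-type arrays, with 1872 in knockout 2. The sum of 4 mast cell markers of 10 was 1127 to 1510.9 in knockout and 1269.7 to 1626.1 in wild-type arrays. The 8 endothelial markers summed to 734.8 to 936.5 against 796.3 to 1062.3. The 8 macrophage markers summed to 7346.2 to 9107.1 in knockout against 9612.6 to 10737 in wild-type arrays, without overlap. In these 4 lists 0 markers passed limma's threshold for genotype (unadjusted 0, 1, 1 and 5, in the order given, against 9.4% of all kept probe sets) or for the slope on Krt25 (unadjusted 0, 3, 1 and 1, against 10.8%), and none of the lists was highest in knockout 1 and 2. The 3 mast cell slopes differ in sign, -0.084 for Cma1, -0.077 for Cpa3 and 0.13 for Kit. The part of these 4 cell types in the values of the pigment genes was not tested. Of the 19 measured hair follicle genes, 12 rose with Krt25 past limma's threshold, against 0.392% of all kept probe sets. Krt25 is itself a keratin of growing follicles, so the choice of this list made such a rise likely.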

How the data were processed

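Biotin-labelled cRNA from whole skin of 9 mice was hybridised to MG-U74 arrays, and signals were made with Microarray Suite 5.0 (MAS5), per the labels. The deposited values are natural log signals, as settled from the numbers: their exponentials are whole multiples of 0.1, to within 0.002, in all arrays. They were converted to log2 and not normalised again. Detection calls were not used here, and the number of arrays limits the precision. Probe sets were named from the platform annotation through Entrez identifiers. Probe sets that reached their array's 40th percentile on 4 or more arrays were kept (7658 of 12422). Genotype differences, and slopes on log2 Krt25 with genotype as a term, were fitted in R 4.3.3 with limma 3.58.1 (eBayes with trend, two-sided, Benjamini-Hochberg over all kept probe sets) and tested on simulated data. The members, lists and alternatives were chosen with earlier results of these data known. All member probe sets are named. Of the wider list, genes past a threshold and the 4 with the smallest p per fit are named. Likeness (Pearson), planned for 5 genes, was computed for Dct and Pmel, the ones kept.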

Additional observations from a re-analysis of the deposited data

Results flagged for a closer look

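Within each genotype, the highest and the lowest array of each of 14 probe sets, the members and Krt25, were compared with the other arrays of the group by Dixon's criterion. Of 28 groups 2 had an array far from the others, where chance gives about 1 in 20. The Pmel signal of wild type 1, 109.8, lay above the other wild-type arrays at 77.2, 78.9 and 76.5. The Krt25 signal of wild type 3, 148.3, lay above the other wild-type arrays at 13.4, 3.8 and 3, and Dct and Pmel were not high in that mouse (186.6 and 78.9).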

How the results depend on the processing

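The count of member probe sets called for genotype was 0 in the main setting and in all alternatives run except within the 7-decimal arrays, where it was 2. The count called for the slope on Krt25 was 1. It became 0 with no filter, a filter at the 60th percentile, quantile normalization, no trend, array weights, decimals as a block, within the 7-decimal or the 9-decimal arrays, Krt25 not floored, the follicle list in place of Krt25, the knockout arrays alone, and, as alternatives added after the data were seen, without knockout 1 and 2 and without the 3 arrays with the highest Krt25. It became 2 with no genotype term and ranged from 0 to 2 when single mice were left out. That of the wider pigment list ranged from 0 to 1 (Trpm1, without knockout 3) over the same omissions. Signs turned for genotype with Krt25 as a covariate (Dct -0.023, Mc1r -0.17), within the 9-decimal arrays (Mc1r -0.046, Pmel -0.018) and without knockout 1 and 2 (Mc1r -0.15). Signs of slopes turned without the 3 arrays with the highest Krt25 (Dct -0.029, Mc1r -0.042, Pmel -0.058; 4 of these 6 arrays are at the Krt25 floor, so the slopes there turn on wild type 3 and say nothing of the relation), within the 7-decimal (Mc1r -0.068) or 9-decimal arrays (Sox10 -0.012) and without knockout 1 and 2 (Sox10 -0.0045). Within the 7-decimal arrays the genotype term takes up the distance in Krt25, so the slope there says nothing of the relation either. The cause of these turns of sign was not tested. Over all probe sets the genotype calls were 4 and ranged from 0 (within the 9-decimal arrays) to 10 (within the 7-decimal arrays), with 1 under the replicate block. The slope calls were 31 and ranged from 0 (within the 7-decimal arrays) to 344 (without knockout 3), with 6 without knockout 4 and 9 under the replicate block.

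The samples share replicate numbers by label, but same-numbered arrays did not deviate together (correlations 0.11, -0.012, -0.046 and 0.019). With the replicate block, which leaves out knockout 5, the slope of Dct was 0.26 (limma adjusted p = 0.216) and 0 members were called. Dim signals limit Tyr, Tyrp1, Oca2 and Ednrb, and in some arrays Mitf and Mc1r.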
